A study of Mus musculus with 20 samples.

Results

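The 90/5 pattern gave dorsal root ganglion (DRG) neurons of the mouse a burst of 90 action potentials at 10 Hz every 5 min. This account describes the transcripts of neurons stimulated with that pattern for 2 hr, compared with unstimulated neurons. The stimulated samples, C1 to C4, and the unstimulated samples, X1 to X4, were chosen by the condition given in their labels, which makes 4 stimulated and 4 unstimulated samples of the 20 in the series. The other 12 samples were neurons given the same pattern for 5 hr, and neurons given a burst of 18 action potentials every 1 min (18/1) for 2 hr or 5 hr, with 4 samples each.

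All groups were neurons from NIH Swiss mouse embryos of day 13.5, with no transgene or drug that distinguished the groups. The neurons were kept for several weeks in chambers where axons cross under a barrier, with fluorodeoxyuridine, which stops dividing non-neuronal cells. On the day before the experiment all cultures, the controls included, were moved to medium that lacked serum. Each stimulus was a biphasic pulse of 6 V and 0.2 ms, and unstimulated cultures came from the same dissections and were handled alike without being connected to the stimulator. The methods describe RNA pooled from 5 cultures per condition and do not say whether each sample was such a pool, so the p-values measure only the spread between these samples.

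Action potentials open voltage-gated calcium channels, and calcium that enters the neuron activates kinases and phosphatases that reach the nucleus. Transcription factors that are already present there, such as CREB and serum response factor, then switch on immediate early genes, many of which encode further transcription factors of the Fos, Egr and Nr4a families. A second group of targets encodes effectors, such as growth factors, regulators of G proteins and inhibitors of cytokine signalling, which act on the excitability, growth and survival of the cell.

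Each array carried 2 samples of the same condition, 1 labelled with Cy3 and 1 with Cy5. The stimulated samples lay on a C1/C3 array and a C2/C4 array, and the labels do not settle which colour held which replicate, and these samples therefore go by their array and dye. The unstimulated samples and the 18/1 2 hr samples lay on slide 1, the 90/5 2 hr and 18/1 5 hr samples on slide 2 and the 90/5 5 hr samples on slide 3, so that slide and stimulation cannot be told apart in the comparison with unstimulated neurons. The arrays on slide 2 were brighter over background than those on slide 1. The median ratio of a spot to its background was 2.27 to 2.59 in unstimulated samples, 3.64 and 3.83 on the C1/C3 array and 4.74 and 6.71 on the C2/C4 array. On the C2/C4 array the scanner software marked 3138 and 6476 of 43020 spots as non-uniform, against 45 and 139 on the C1/C3 array and 6 to 36 in the unstimulated samples. The part of the slide in the results below was not tested beyond the values given beside them.

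The cultures carried the transcripts of sensory neurons. All 18 markers of DRG neurons, among them Tubb3, Prph, Nefl, Isl1, Pou4f1 and Scn10a, were well above background in all 8 samples. Of the 16 that could be tested 0 were called, where 7.03% of all genes were, a count too small to tell the list from all genes. The summed signal of this list was 19.44 to 19.57 on the log2 scale in unstimulated and 19.27 to 19.53 in stimulated samples. The labels call the cells neurons dissociated from spinal cords, but the list for spinal cord neurons and central glia had 0 of 15 members above the spot filter. Of its members the neuronal markers Gad2, Lhx5 and Mnx1 were well above background in none of the 8 samples, the glial markers Aldh1l1, Aqp4 and Mog in all 8, and the other 9 in some. The summed signal of this list was 10.97 to 11.17 in unstimulated and 11.08 to 11.78 in stimulated samples. Some Schwann cell and fibroblast transcripts were present. The summed signal of the Schwann cell and satellite glia list was 16.34 to 16.51 in unstimulated and 16.34 to 16.62 in stimulated samples, and 1 of its 4 members that were tested fell, where 3.47% of all genes did (Ncmap, listed as A330049M08Rik, by 0.98, adjusted p = 0.0281, and not called without the C2/C4 array). The fibroblast list stood at 16.6 to 17.12 and 16.61 to 17.24, with 0 of 5 tested members called, where 7.03% of all genes were. Such sums mostly follow the brightest member and say little about the others. S100b alone lay at 16.02 to 16.15 without and 15.95 to 16.29 with stimulation, and Thy1 of the fibroblast list at 16.19 to 16.3 and 15.64 to 16.2. Dimmer fibroblast members spread further, with Col1a1 at 12.35 to 13.48 and 12.53 to 15.22, and Mgp at 11.15 to 13.81 and 11 to 13.03. A lower share of cells of a type and less RNA per cell cannot be told apart in such samples.

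Levels are normalized log2 intensities, so a difference of 1 is a 2-fold change. A gene is referred to as called, and as having risen or fallen, where limma gave a Benjamini-Hochberg adjusted p under 0.05 over all 10355 genes that passed the spot filter. Of these genes, 728 (7.03%) were called between 90/5 2 hr and unstimulated neurons, 369 (3.56%) higher and 359 (3.47%) lower. The smallest called change was 1.6-fold, the largest measured rise 26.9-fold and the largest fall 7.53-fold. All 4 stimulated samples lay above all 4 unstimulated samples for 1195 genes (11.5%) and below them for 1534 (14.8%), so the groups did not overlap for 2729 (26.4%), which is the background for the genes below. Missing the threshold does not show that a gene stayed the same.

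The 2 stimulated arrays did not weigh equally in this count. With the C1/C3 array as the only stimulated array, 105 genes passed (1.01%), 82 higher (0.792%) and 23 lower (0.222%). With the C2/C4 array as the only one, 2143 genes passed (20.7%), 863 of them higher (8.33%) and 1280 lower (12.4%). The 2 stimulated arrays differed from each other by an SD of 0.658 on the log2 scale over all genes, with 1284 genes over 2-fold apart, whereas the 2 unstimulated arrays differed by an SD of 0.226 with 26 genes that far apart. Of the 369 genes that rose, 315 had the larger difference on the C2/C4 array, and so had 339 of the 359 that fell. The median difference of the genes that rose was 1.14 on the C1/C3 array and 1.67 on the C2/C4 array, and that of the genes that fell was -0.77 and -1.60.

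In both single-array fits 92 genes were called in the same direction (0.888%), 80 higher (0.773%) and 12 lower (0.116%). The fits share the unstimulated samples, so the number is a count and not a test. Each fit of a single stimulated array takes its spread from the other arrays and assumes that the lone array varies as they do.

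**Figure D1:**
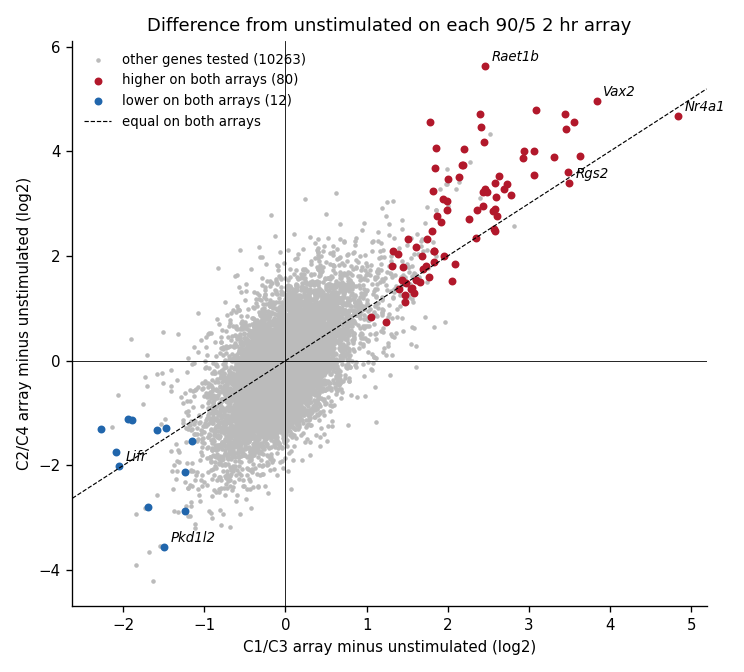
Log2 difference from unstimulated neurons on the C1/C3 array (horizontal axis) and on the C2/C4 array (vertical axis) for 10355 genes, with the 80 genes called higher on both arrays in red, the 12 called lower on both in blue and all other genes in grey. The cloud of grey points is wider along the C2/C4 axis.

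A part of the immediate early transcription factors rose. Of the 37 transcription factors in the list of rapid response genes, 20 passed the filter. Of these, 8 rose and 1 fell, a share of 45% called beside 7.03% of all genes, with a median difference of 0.67 beside -0.08 over all genes. With saturated probes left out, 4 of 18 tested members were higher and 0 lower, where 140 of 8476 genes were higher and 281 lower. On the C1/C3 array the median of the list was 0.57 and on the C2/C4 array 0.65. In the single-array fits 2 members were higher and 0 lower on the C1/C3 array, and 9 were higher and 1 lower on the C2/C4 array. A weaker filter required 2 times the background, and no mark as non-uniform, in every sample of any 1 condition. With it 5.13% of all 18744 genes were called, 2.36% higher and 2.77% lower. A gene can pass it through a stimulated condition alone, so no count of members that rose is taken from it. Of the 9 members called with the main filter, Nab2 (adjusted p = 0.0894), Fosl1 (0.0793), Cebpb (0.0574), Mafk (0.0558) and Klf6 (0.0875) were not called with the weaker one. The list was written with earlier results of these data known, so the share describes these genes and is not independent evidence. Fos, Nr4a2, Npas4 and Egr4 had a spot below 2 times background in 4, 4, 2 and 2 of the unstimulated samples and passed the weaker filter through stimulated conditions alone, so their values are a description with no test.

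Npas4, a neuronal transcription factor induced by calcium entry, had levels of 7.12, 7.73, 7.33 and 7.46 in the unstimulated samples X1 to X4. It reached 12.67 and 13.60 on the C1/C3 array (Cy3, then Cy5) and 13.09 and 12.76 on the C2/C4 array. The groups did not overlap, and all 4 stimulated samples stood over 4 log2 units above every unstimulated sample. The difference was 5.62 ± 0.61 (SE), with 5.72 on the C1/C3 array and 5.51 on the C2/C4 array.

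Fos, a subunit of the AP-1 transcription factor, lay at 7.23, 7.31, 7.15 and 7.25 without stimulation. It lay at 10.77 and 11.76 on the C1/C3 array and at 12.09 and 12.06 on the C2/C4 array, again with no overlap. Its difference was 4.44 ± 0.44 (SE). Fosb, a paralogue that reached 2 times background in all 8 samples, rose by 1.75 in the fit with the weaker filter (adjusted p = 0.00388 over 18744 genes), and its call was lost without the X1/X2 array (adjusted p = 0.0571) or the X3/X4 array (adjusted p = 0.0611).

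Nr4a1, an orphan nuclear receptor also known as Nur77, had no saturated spot and the largest measured rise among the genes that passed the main filter. Genes with saturated spots have no order beside it, so the rank holds among genes without them. Its probe lies at chr15:101105071-101105130 (mm9, the build of the array files). Its levels were 8.0, 8.49, 8.03 and 8.81 in unstimulated neurons. They were 12.75 and 13.59 on the C1/C3 array and 13.11 and 12.89 on the C2/C4 array. Every stimulated sample was thus far above every unstimulated one, at 26.9-fold on average (log2 difference 4.75 ± 0.37, SE, adjusted p = 1.81e-07). Its paralogue Nr4a2 differed by 2.83 ± 0.77 (SE), with 10.10 and 11.06 on the C1/C3 array and 9.35 in both samples of the C2/C4 array against 7.08 to 7.20 without stimulation.

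Of the Egr zinc finger factors, Egr4 differed by 2.92 ± 0.35 (SE), with 7.03 to 7.81 without stimulation and 9.85 to 10.87 with it. Egr1 rose by 2.70 ± 0.59 (SE, adjusted p = 0.00707). Its unstimulated levels were 7.85, 8.57, 7.98 and 8.64, and its stimulated levels were 10.58 and 11.59 on the C1/C3 array and 10.91 and 10.75 on the C2/C4 array. Egr1 stood 2.82 above unstimulated neurons on the C1/C3 array and 2.57 on the C2/C4 array, of which the second alone was called (adjusted p = 0.101 and 0.0204). The call was also lost without the X1/X2 array (adjusted p = 0.0917) or the X3/X4 array (adjusted p = 0.0761). Nab2, which binds Egr proteins and represses them, rose by 1.23 (adjusted p = 0.0392).

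Smaller rises were found for basic leucine zipper and helix-loop-helix factors. Maff, a small Maf protein, rose by 1.72 (adjusted p = 0.00113), from 10.46 to 11.07 without stimulation to 11.77 to 12.94 with it. Id1, an inhibitor of helix-loop-helix factors, rose by 1.65 (adjusted p = 0.0036), Cebpb by 1.14 (adjusted p = 0.03), Fosl1 by 0.89 (adjusted p = 0.0423) and Mafk by 0.83 (adjusted p = 0.0383). With the weaker filter Nfil3 rose by 2.18 (adjusted p = 0.00495) and Fosl2 by 1.79 (adjusted p = 0.046). Klf6, a Krüppel-like factor, was the single member that fell, by 1.13 (adjusted p = 0.0484). Of the 12 fits that left out a sample or an array, Maff kept its call in all 12 (1.33, adjusted p = 0.0489, without the C2/C4 array) and Id1 and Nfil3 in 10 each. Cebpb and Mafk kept theirs in 5, Nab2 and Fosl1 in 3, and Fosl2 and Klf6 in 2. The C2/C4 array and the X3/X4 array were each needed for the calls of all of these but Maff, and the X1/X2 array for all but Maff, Id1 and Nfil3. With the GC trend removed Id1 (1.16, adjusted p = 0.0512), Cebpb (0.95, adjusted p = 0.101) and Mafk (0.63, adjusted p = 0.129) were not called. Nor were Nab2 (adjusted p = 0.0945), Fosl1 (0.0513), Fosl2 (0.0846) and Klf6 (0.0685). Egr4, Fosb, Fosl2, Nfil3 and Nr4a2 were chosen for description after their values were seen.

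**Figure D2:**
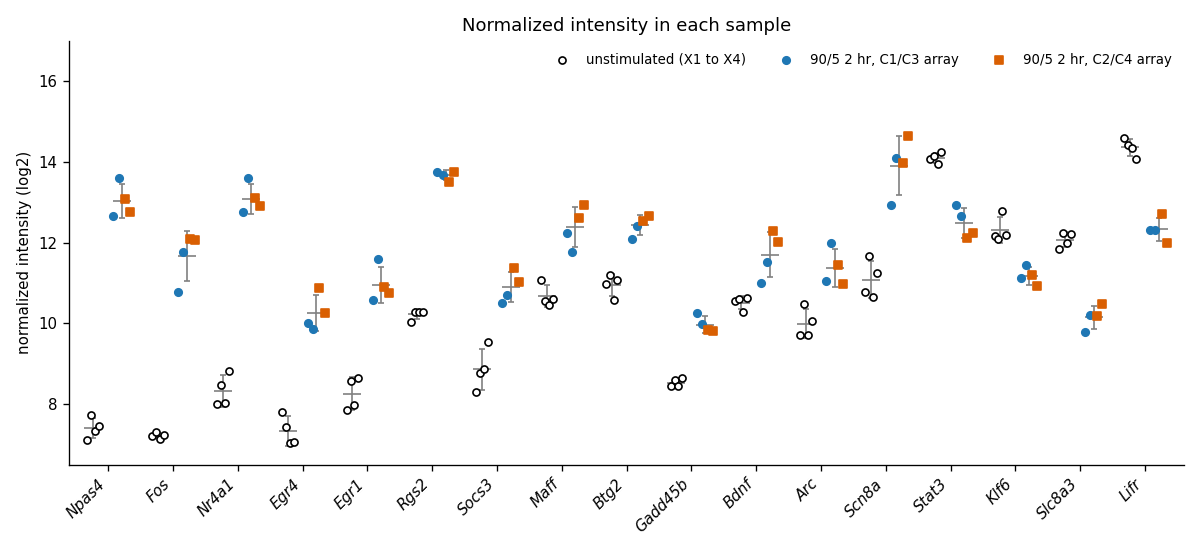
Normalized log2 level of 17 genes in each unstimulated sample (X1 to X4) and each 90/5 2 hr sample, the latter marked by array, with grey bars for the mean ± SD of each group (n = 4). Npas4, Fos and Nr4a1 lie 4 or more log2 units higher on both arrays, while Bdnf and Maff lie higher on the C2/C4 array than on the C1/C3 array.

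The core promoters of these genes are shown because CREB, the factor most directly tied to calcium entry, binds the cAMP response element TGACGTCA or its shorter core, TGACG. The windows below come from the RefSeq promoter table (build GRCm38.p6), which covers 250 bases before and 50 bases after each start site. They are written 5′ to 3′ on the strand of the gene, with the matching letters in capitals. CGTCA is the same core on the other strand.
Fos, chr12:85473816-85473836: ccgcccagTGACGtaggaagt
Npas4, chr19:4990128-4990148: tcacgggaTGACGtcggaagt
Nr4a1, chr15:101266798-101266818: tctccatgCGTCAcggagcgc
Egr4, chr6:85513686-85513706: gtcatttaCGTCAcggcgcca
Rgs2, chr1:144004204-144004224: ggcgtggcTGACGcctccagg
Maff, chr15:79347483-79347506: tggggcggTGACGTCActgcatga
Btg2, chr1:134079306-134079329: cccaataaTGACGTCAgtgagcga
The windows of Fos, Npas4, Nr4a1, Egr4 and Rgs2 hold the core, and those of Maff and Btg2 hold the full element. The matches begin at -66 for Fos, -169 for Npas4, -40 for Nr4a1, -109 for Egr4, -67 for Rgs2, -29 for Maff and -166 for Btg2, counted from the start site. The promoters of Socs3, Gadd45b and Nab2 hold neither. The core alone is common, since it was found, on either strand, in 36.4% of the 7078 tested genes with a promoter in the table. A match is a description of the letters and not a measured binding site.

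Effector genes of neuronal activity rose in part. Of 48 genes in this list, 31 passed the filter, 6 rose (19.4% beside 7.03% of all genes) and 0 fell, with a median difference of 0.38. With saturated probes left out, 4 of 27 tested members were higher and 0 lower, where 140 of 8476 genes were higher and 281 lower. Rgs2 was not among these 27. In the single-array fits 3 members were higher and 0 lower on the C1/C3 array, and 7 were higher and 1 lower on the C2/C4 array. Rgs2, which speeds the inactivation of G proteins, rose most (probe at chr1:145848830-145848889, mm9). It lay at 10.04, 10.29, 10.28 and 10.28 without stimulation, at 13.75 and 13.68 on the C1/C3 array and at 13.50 and 13.75 on the C2/C4 array. The stimulated samples lay within 0.3 of each other, and the difference was 3.45 ± 0.34 (SE, adjusted p = 1.61e-06). A second probe for Rgs2 differed by 1.11.

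Socs3, which inhibits JAK-STAT signalling, was at 8.30, 8.78, 8.87 and 9.53 without stimulation and at 10.52, 10.703, 11.36 and 11.03 with it, in the order C1/C3 Cy3, C1/C3 Cy5, C2/C4 Cy3 and C2/C4 Cy5. The groups did not overlap, and the difference was 2.03 ± 0.34 (SE, adjusted p = 0.0008). Gadd45b, which takes part in DNA demethylation and stress signalling, lay at 8.44, 8.59, 8.44 and 8.65 and, with stimulation, at 10.26, 9.98, 9.84 and 9.81 in the same order. Its rise of 1.44 ± 0.25 (SE, adjusted p = 0.000974) was larger on the C1/C3 array (1.59) than on the C2/C4 array (1.29).

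Btg2, an antiproliferative early gene, rose by 1.48 ± 0.28 (SE, adjusted p = 0.00297), with all stimulated samples (12.10 to 12.67) above all unstimulated ones (10.58 to 11.20). Nptx1, a pentraxin that gathers AMPA receptors at synapses, rose by 1.16 (adjusted p = 0.0333), a call lost with the weaker filter (adjusted p = 0.0727). With the GC trend of each sample removed Nptx1 came to 0.51 (adjusted p = 0.354). Arc, which regulates the uptake of AMPA receptors, missed the threshold. Its levels were 9.72, 10.47, 9.71 and 10.07 without and 11.05, 11.99, 11.46 and 10.97 with stimulation, which do not overlap, at a difference of 1.37 ± 0.43 (SE, adjusted p = 0.0544). Arc was called in 8 of 28 alternatives and not in the other 20, and came to 1.6 with the GC trend removed (adjusted p = 0.0185). Spry4, measured with the weaker filter, rose by 2.05 (adjusted p = 0.0165 over 18744 genes), a difference that was 1.36 and not called with the GC trend removed (adjusted p = 0.0732). Gem, which lay below 2 times background in 2 unstimulated samples, differed by 1.62 ± 0.45 (SE, no test). Both were chosen after their values were seen. Rgs2, Socs3 and Gadd45b kept their calls in all 12 fits that left out a sample or an array. Btg2 kept its call in 10, Spry4 in 9 and Nptx1 in 5. The C2/C4 and the X3/X4 array were each needed for the calls of these last 3 genes, and the X1/X2 array for that of Spry4.

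Several other well-known early genes did not pass the test here. Dusp1, Dusp6 and Klf4 differed by 0.45, 0.37 and 0.51, with adjusted p-values of 0.589, 0.736 and 0.483 in the fit with the weaker filter. Egr2, Junb, Ier2, Klf2 and Ptgs2, which passed it through stimulated conditions alone, differed by -0.15 to 0.51 (no test). Jun lay 0.65 below and Atf3 0.26 below unstimulated neurons, neither called.

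A list of neurotrophins, ligands of the GDNF family and receptors also held Lifr, which is a receptor for neither family. Of its 22 genes, 13 passed the filter and 3 were called (23.1% beside 7.03% of all genes), of which Bdnf and Lifr are described here. With saturated probes left out, 1 of 10 tested members was higher and 0 lower, where 140 of 8476 genes were higher and 281 lower. Bdnf, a growth factor under activity control, lay at 10.56, 10.60, 10.27 and 10.63 without stimulation, at 11.003 and 11.51 on the C1/C3 array and at 12.28 and 12.01 on the C2/C4 array. All 4 stimulated samples were above the unstimulated ones, and the difference was 1.19 ± 0.30 (SE, adjusted p = 0.0191). Its call depended on the C2/C4 array, without which it was 0.74 (adjusted p = 0.436). It was also lost without the X1/X2 array (adjusted p = 0.141) or the X3/X4 array (adjusted p = 0.18).

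Lifr, the receptor for leukaemia inhibitory factor, fell from 14.59, 14.43, 14.34 and 14.08 to 12.32 and 12.31 on the C1/C3 array and 12.70 and 12.0005 on the C2/C4 array, a difference of -2.03 ± 0.35 (SE, adjusted p = 0.00114). The other 2 measured probes for Lifr differed by -0.19 and -0.62. Of the sensory neuropeptides and granule proteins 16 of 25 passed the filter and 0 were called, where 7.03% of all genes were. That count is too small to tell the list from all genes.

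Of 13 sodium channel genes tested, 1 rose (7.69% beside 7.03% of all genes): Scn8a, which encodes Nav1.6 of the nodes of Ranvier, from 10.77, 11.66, 10.65 and 11.25 to 12.92 and 14.10 on the C1/C3 array and 13.97 and 14.64 on the C2/C4 array. The groups did not overlap, and the difference was 2.83 ± 0.35 (SE, adjusted p = 3.82e-05). The other 2 probes for Scn8a were well above background in 1 and 4 unstimulated samples and in 0 stimulated ones, so they give no measure of its change. With saturated probes left out, 11 sodium channel genes were tested and 0 were called. Scn8a was not among these 11, since its probe was left out. Of 24 potassium and HCN channel genes 3 were called (12.5% beside 7.03%). Kcna4, which encodes the A-type channel Kv1.4, rose by 1.49 (adjusted p = 0.00183), while Kcnc1, encoding Kv3.1, fell by 1.05 (adjusted p = 0.0481) and Kcnd1, encoding Kv4.1, fell by 1.12 (adjusted p = 0.0138). Kcnc1 was not called with the weaker filter (adjusted p = 0.0862). Other probes well above background in all 8 samples differed by -0.34 and -0.34 for Kcnc1 and by -0.42 for Kcnd1. A further Kcnd1 probe (-0.79) was well above background in 4 unstimulated samples and in 0 stimulated ones. With the GC trend removed Kcnd1 came to -0.7 and was not called (adjusted p = 0.0969). Kcnc1 and Kcnd1 were not called without the C2/C4, the X1/X2 or the X3/X4 array, and Kcna4 was not called without the X3/X4 array (adjusted p = 0.0566). Of 11 calcium channel, 13 TRP, ASIC, Piezo and P2X, 15 GABA and glutamate receptor and 34 synaptic vesicle and SNARE genes tested, 0 were called in each list. The last list leaves out Snap23, a SNARE gene that was tested and fell, as described below.

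Among components of signalling cascades, the lists differed in their counts. Of 35 MAP kinase cascade genes, 1 was called (2.86% beside 7.03% of all genes): Dusp14, a phosphatase of MAP kinases, rose by 1.34 (adjusted p = 0.00816). In calcium, calmodulin and cAMP signalling 4 of 49 were called (8.16%). Calm3, a calmodulin gene, rose by 1.17 (adjusted p = 0.0249), and Pde1a, a calcium-dependent phosphodiesterase, fell by 2.12 (adjusted p = 0.00672) as did Camk1g by 0.90 (adjusted p = 0.0301) and Prkacb by 0.86 (adjusted p = 0.0497). With the weaker filter Calm3 (adjusted p = 0.0574) and Prkacb (adjusted p = 0.0783) were not called. All of these calls were lost without the C2/C4, the X1/X2 or the X3/X4 array. With the GC trend removed Calm3 came to 0.68 (adjusted p = 0.183). With saturated probes left out another probe for Calm3 gave 0.84 (adjusted p = 0.0898). The other probe for Prkacb, well above background in all 8 samples, differed by -0.15. With centring on medians Prkacb came to -0.35 (adjusted p = 0.604). Pde1a shows the gap between the arrays, since it lay at 10.54 to 11.17 without stimulation, at 9.90 and 9.77 on the C1/C3 array and at 8.03 and 7.62 on the C2/C4 array. A second probe for Pde1a differed by -0.22 and was well above background in 4 unstimulated samples and 1 stimulated sample.

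In the NF-kappaB and JAK-STAT list 4 of 25 were called (16% beside 7.03% of all genes), but with the weaker filter Nfkbia (adjusted p = 0.0808) and Bcl3 (adjusted p = 0.0986) were not called. The inhibitors Socs3 and Nfkbia rose, Nfkbia by 1.09 (adjusted p = 0.0385), as did Bcl3, a partner of NF-kappaB, by 1.26 (adjusted p = 0.0481). Stat3, a transcription factor downstream of the LIF receptor, fell by 1.62 ± 0.37 (SE, adjusted p = 0.0104), from 13.94 to 14.25 without stimulation to 12.92 and 12.66 on the C1/C3 array and 12.11 and 12.24 on the C2/C4 array. A second probe for Stat3 differed by -0.21 and was well above background in 4 unstimulated and 2 stimulated samples. Without the C2/C4 array the fall of Stat3 was 1.31 and not called (adjusted p = 0.299), and Nfkbia and Bcl3 lost their calls too. The X1/X2 and X3/X4 arrays were each also needed for the calls of Stat3, Nfkbia and Bcl3, and the C1/C3 array for that of Nfkbia. Of 31 axon guidance genes 3 rose (9.68% beside 7.03%), the Eph receptors Epha5 (1.59, adjusted p = 0.00113) and Ephb3 (1.51, adjusted p = 0.0283, and 0.0743 with the weaker filter) and the semaphorin Sema4c (1.89, adjusted p = 0.00823). Cry2, a repressor of the circadian clock, was the 1 gene called among 11 clock genes (9.09%, at 2.05, adjusted p = 0.00238), but its change came to 0.64 (adjusted p = 0.127) when probes with saturated spots were left out and another probe stood for the gene. Without the C2/C4 or the X3/X4 array the calls of Ephb3, Sema4c and Cry2 were lost, and that of Epha5 was kept. Without the X1/X2 array Ephb3 (adjusted p = 0.165) and Sema4c (adjusted p = 0.0768) were lost as well.

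**Figure D3:**
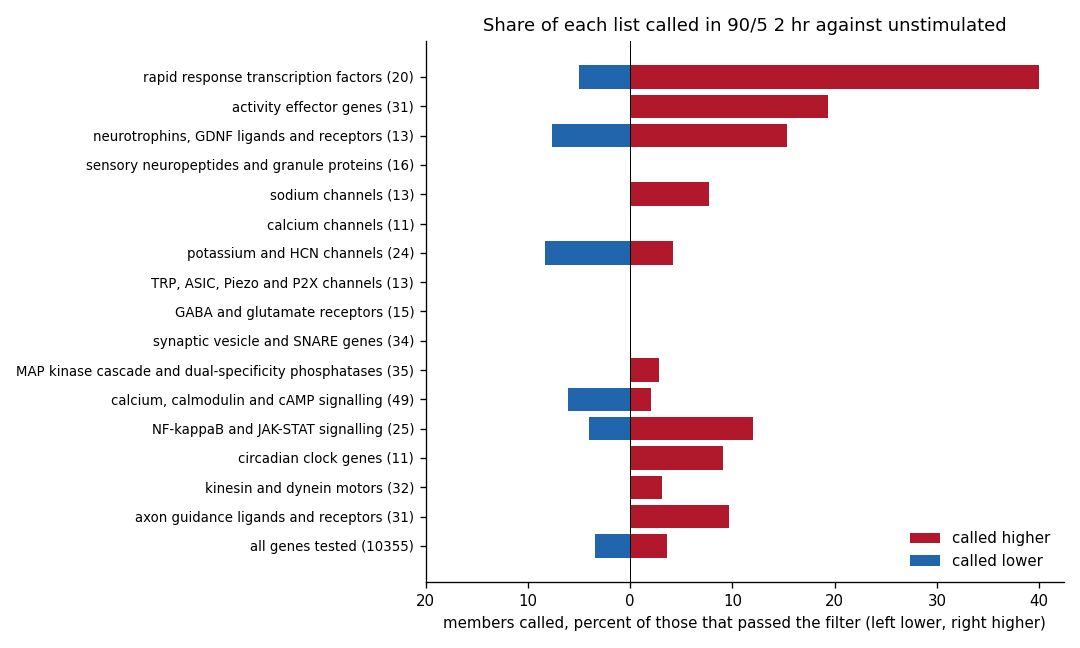
Percent of the tested members of each gene list called higher (to the right) and lower (to the left) at 90/5 2 hr, with all 10355 tested genes as the last entry (3.56% and 3.47%). The rapid response transcription factors had 8 of 20 higher and 1 of 20 lower. Among lists not plotted, 3 of 6 odorant and vomeronasal receptors were lower.

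The 80 genes that rose on both arrays, of which 65 have a current gene symbol, were grouped by known function after their values were seen, and no theme was tested. Activity genes in the strict sense were Nr4a1, Rgs2, Socs3, Gadd45b and Maff. Transcription factors of other kinds were Vax2 and Sall4, regulators of development, with Mef2a and E2f4. The rise of E2f4, 1.56, was 0.64 and not called with the GC trend removed (adjusted p = 0.088). Enzymes and partners of chromatin were Ehmt1 and Suv39h2, which methylate histone H3, Ubn1 and Nasp, which handle histones, and Anp32a. Rad51c and Pot1a act in DNA repair and at telomeres, and Dut removes dUTP. Regulators of small GTPases were Arhgap26, Ralgps1 and Plekhg3. Scn8a, Kcna4, Epha5 and Nkain1, a partner of the sodium pump, act at the surface of neurons. Metabolic genes were Sdhc, Aldh3a1, Gcgr and Ppp1r3b. Elane, F10, Il15ra, Cd244a, Lst1 and Ifitm7 are best known from blood, liver or immune cells. Other measured probes for Il15ra, Lst1 and Ifitm7 differed by 0.04, 0.08 and -0.51. Of the macrophage and immune marker list 0 of 3 tested members were called, where 7.03% of all genes were.

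Of these 80 genes, 43 had a saturated spot in at least 1 stimulated sample and 0 in an unstimulated one. Their median difference was 2.11 on the C1/C3 array and 2.89 on the C2/C4 array, and 62 were larger on the latter. The fits chose these genes, so these values describe them.

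Vax2, a homeobox factor of the developing eye, lay at 9.16, 9.73, 9.06 and 9.80 without stimulation. It lay at 12.83 and 13.71 on the C1/C3 array and at 14.12 and 14.68 on the C2/C4 array, a rise of 4.40 ± 0.36 (SE, adjusted p = 2.42e-07). Sall4, a zinc finger factor of stem cells, rose by 3.94 (adjusted p = 7.51e-07), Nkain1 by 4.07 (adjusted p = 4.14e-05), Elane, a neutrophil protease, by 3.60 (adjusted p = 2.68e-07), and the histone methyltransferase gene Ehmt1 by 3.40 (adjusted p = 4.82e-05). Each of these 5 genes had a saturated spot in 1 or 2 stimulated samples, so their differences have no order among themselves or beside that of Nr4a1. With saturated probes left out, another probe stood for Nkain1 (0.26) and Ehmt1 (-0.07).

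The median level of the 80 genes was 11.06 in unstimulated neurons and 11.25 at 18/1 2 hr, both on slide 1, 13.87 at 90/5 2 hr and 14.18 at 18/1 5 hr, both on slide 2, and 11.04 at 90/5 5 hr on slide 3. Vax2 was likewise higher in both conditions of slide 2 than in the other 3, at 9.44, 9.49, 13.84, 14.07 and 9.63 in the same order of conditions. So was Scn8a, at 11.08, 10.99, 13.91, 14.16 and 10.81. Nr4a1 was instead high in every stimulated condition. It lay at 12.86 after 2 hr of 18/1, 13.08 after 2 hr of 90/5, 12.76 after 5 hr of 18/1 and 13.83 after 5 hr of 90/5, against 8.33 without stimulation. Rgs2 was at 13.49, 13.67, 13.85 and 14.19 in these conditions against 10.22, and Npas4 at 12.03, 13.03, 12.20 and 13.21 against 7.41. For the first set of genes slide and stimulation cannot be told apart. For Nr4a1, Rgs2 and Npas4 the level at 18/1 2 hr, on the slide of the unstimulated neurons, was also high. Of the 80 genes, 72 were called at 90/5 2 hr against 18/1 2 hr, where 5.02% of all genes were called (2.66% higher and 2.37% lower), and 74 against 90/5 5 hr, where 9.01% were (4.31% higher and 4.7% lower). Both comparisons lie across slides and use the same 90/5 2 hr samples that chose these genes, so the counts are a description.

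**Figure D4:**
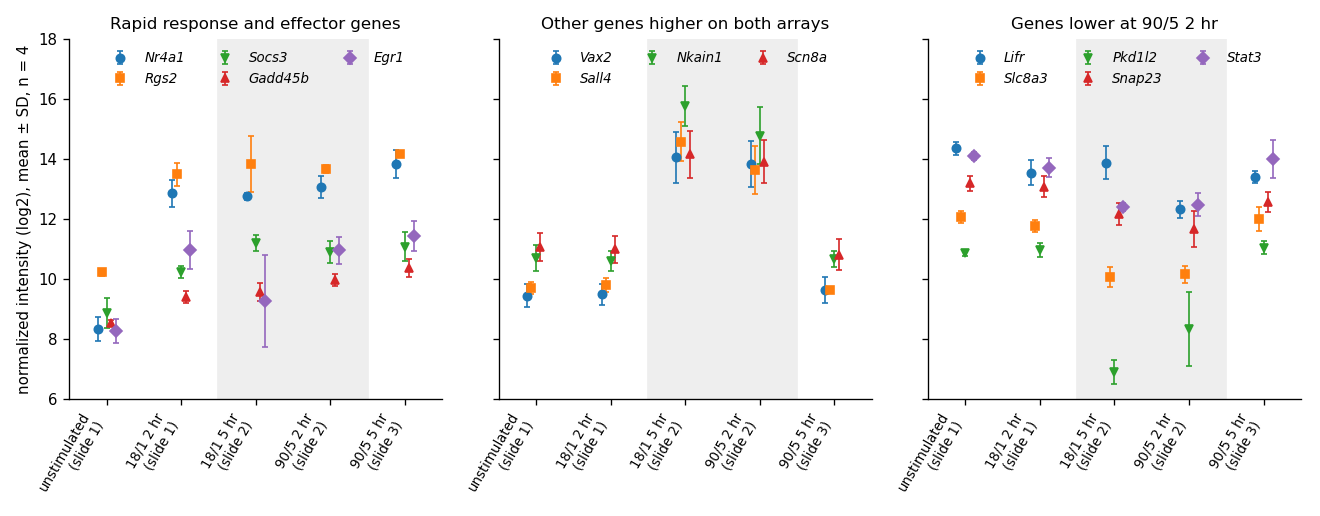
Mean ± SD (n = 4) of the normalized log2 level of 14 genes in the 5 conditions, with the conditions of slide 2 shaded. Nr4a1, Rgs2, Socs3, Gadd45b and Egr1 (first panel) have higher means in every stimulated condition than in unstimulated neurons, with a wide SD for Egr1 at 18/1 5 hr, whereas Vax2, Sall4, Nkain1 and Scn8a (second panel) are raised on slide 2, and Slc8a3 and Pkd1l2 (last panel) are lowest there.

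Other probes for the same genes give a second view. Of the 80 genes, 36 have another probe on the array, and for 24 of them at least 1 other probe, 30 in all, was well above background in all 8 samples. Of these 30 probes, 3 differed by over 1 in the same direction (Rgs2, Dcaf12l2 and Aopep, listed as 2010111I01Rik), 26 differed by less than 1 in either direction, and the other probe for Sdhc differed by -1.10. Their median difference was 0.23, against 2.53 for the probes that represented these genes, which were the brightest of those that passed the filter. For Nkain1 the probe used differed by 4.07 and the other by 0.26, for Ehmt1 3.40 and -0.07, for Wdfy1 3.77 and -0.66, and for Epha5 1.59 against -0.76 and 0.19. Dcaf12l2 differed by 3.55 with the probe used and by 4.36 with the other. For the 12 genes that fell, 3 had 4 other measured probes, none over 1, with a median of -0.46 against -1.70. Probes for a gene can lie on different transcript variants, and the reason for the disagreement was not tested.

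**Figure D5:**
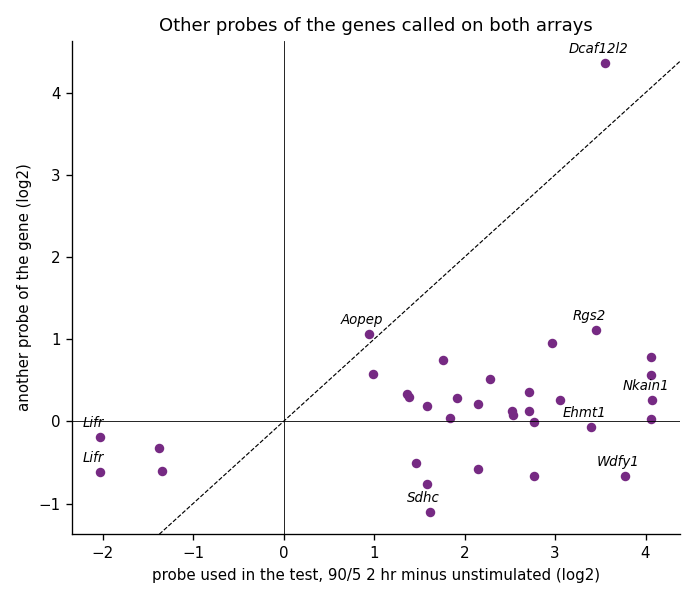
Log2 difference between 90/5 2 hr and unstimulated neurons for the probe used for each gene called on both arrays (horizontal axis) and for each other probe of the same gene that was well above background in all 8 samples (vertical axis), with a line at equality. Most other probes lie between -1 and 1, and Dcaf12l2 is the gene with both probes above 3.

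Of the 65 symbols of genes that rose on both arrays, 46 matched the RefSeq promoter table. The full element TGACGTCA was present in 6 of them (13%), in 14 of the 243 promoters of all genes that rose (5.76%), in 3.9% of the 7078 tested genes with a promoter and in 2.03% of all 27025 genes in the table. One of the 6 is Maff, shown above, and the other windows are shown for their variety of function.
Pot1a, chr6:25809210-25809233: cgcgtgcaTGACGTCAcaggcgcc
Rad51c, chr11:87404536-87404559: cgcgcgtgTGACGTCAcgccactg
Suv39h2, chr2:3475056-3475079: gtctccgcTGACGTCAgaacgcct
Ubn1, chr16:5049958-5049981: ggatgcgcTGACGTCAccgcgccg
Snhg15, chr11:6528833-6528856: aggggcgcTGACGTCAgtgtcttg
Capitals mark the element, and Snhg15, a long noncoding RNA, is listed on the array as Gm11974. The core TGACG was in 32.6% of the 46 promoters, against 36.4% of tested genes. The AP-1 site (TGACTCA or TGAGTCA) was in 4.35%, against 4.41% of tested genes, and the serum response element cores and the NF-kappaB site were in 0 of 46. Of the genes that fell on both arrays, 7 had a promoter in the table, and 0 held the full element. The motifs were searched on both strands, and every full element also holds the core.

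The 12 genes that fell on both arrays, 8 of them with a symbol, were Lifr, Slc8a3, Pkd1l2, Btnl10 (listed as Butr1), Gnb5, Pdzrn3, Snap23 and Rmrp and 4 transcripts without a symbol. With centring on medians only, 1 gene was called lower on both arrays and 77 were called higher. Slc8a3, a sodium-calcium exchanger of the plasma membrane, was at 11.84, 12.24, 11.999 and 12.21 without stimulation. It was at 9.78 and 10.20 on the C1/C3 array and at 10.18 and 10.47 on the C2/C4 array, 1.91 ± 0.24 lower (SE, adjusted p = 2.98e-05). The differences on the 2 arrays were -2.08 and -1.75, and the groups did not overlap. A second probe for Slc8a3 differed by -0.46 and was well above background in 3 unstimulated samples and in 0 stimulated ones. Over all spots 28376 to 29807 carried that mark in unstimulated samples and 22124 to 24498 in stimulated ones. Gnb5, a G protein beta subunit, fell by 1.35 (adjusted p = 0.000684), and Snap23, a SNARE protein, by 1.53 (adjusted p = 0.00115). Pdzrn3, a ubiquitin ligase of synapses, fell by 1.51 (adjusted p = 0.00149), and Rmrp, the RNA of RNase MRP, by 1.45 (adjusted p = 0.00408). The call of Rmrp was lost without the X3/X4 array (-1.27, adjusted p = 0.0816). Pkd1l2, a polycystin-like membrane protein, fell by 2.53 (adjusted p = 0.000606), but by 1.49 on the C1/C3 array and 3.56 on the C2/C4 array. The median level of the 12 genes was 12.08 in unstimulated neurons and 11.95 at 18/1 2 hr on slide 1, 10.61 at 90/5 2 hr and 10.84 at 18/1 5 hr on slide 2, and 12.06 at 90/5 5 hr. Lifr departs from this order. Its level was 14.36 in unstimulated neurons, 12.33 after 2 hr of the 90/5 pattern, 13.55 with 18/1 stimulation at the early time, 13.88 with it at the late time and 13.40 with 90/5 stimulation at the late time.

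Some genes passed the threshold on a single array, which does not show that the arrays differed. On the C1/C3 array 13 genes were called that were not called on both, 2 higher and 11 lower, and 10 of them differed in the same direction on the C2/C4 array. Among them, Oprm1, the mu opioid receptor, fell by 2.14 (adjusted p = 0.0248) on that array and differed by -1.27 on the C2/C4 array (adjusted p = 0.0554), and Tacr2, a tachykinin receptor, fell by 2.06 (adjusted p = 0.0115) and differed by -0.66. Both were picked out after their values were seen. On the C2/C4 array 2051 further genes were called, with a median size of 1.27 there and 0.41 on the C1/C3 array, and 1795 of them differed in the same direction on the C1/C3 array. The called genes whose arrays differed most were Raet1b, which differed by 2.46 on the C1/C3 array and 5.62 on the C2/C4 array, Gm9924 (1.78 and 4.56), Prss53 (-1.63 and -4.20) and the probe A_66_P102046 (-0.68 and -3.17).

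The comparison with 18/1 5 hr can be made within slide 2, although pattern and time both differ in it. Of 10355 genes, 1336 were called (12.9%), 1050 higher (10.1%) and 286 lower (2.76%) at 90/5 2 hr. Of the 80 genes that rose on both arrays, 5 were called in this comparison, 3 higher and 2 lower, and of the 12 that fell, 2 were called. The count of 1336 came to 11 without the C1/C3 array, to 2742 without the C2/C4 array and to 0 on means of arrays. The split was 4837 higher and 18 lower with centring on medians, 492 and 326 with the GC trend removed, and 763 and 1100 with no spot filter. The 18/1 5 hr arrays had 5319 to 14642 spots marked as non-uniform. The values below stand under these limits. Btg2 was 1.02 higher at 90/5 2 hr (adjusted p = 0.025), with 12.43 against 11.41, and E2f4 0.84 higher (adjusted p = 0.0161). Bdnf was 1.19 lower at 90/5 2 hr, with 11.70 against 12.89 (adjusted p = 0.016), and Lifr 1.55 lower (adjusted p = 0.0102). Egr1 lay at 10.96 against 9.25, a difference of 1.70 that was not called (adjusted p = 0.057), and Nr4a1, Rgs2, Socs3 and Gadd45b differed by -0.29 to 0.40 with adjusted p-values of 0.277 to 0.762.

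By the rule of the methods, a transcript was turned on where its spot lay under 2 times background in all 4 unstimulated samples and at or over it in all 4 stimulated samples. This held for 2096 of 43020 spots, and the reverse for 3. Of the spots turned on, 1085 were marked well above background in all unstimulated samples. Over all spots, 22572 to 23307 reached 2 times background in the unstimulated samples, 27874 and 28824 on the C1/C3 array and 32867 and 37243 on the C2/C4 array, and the part of this difference in the count was not tested. Nr4a2, with its levels given above, has a spot among those turned on. So have Junb and Dusp4, whose levels differed by 0.17 and 0.08 (no test).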

How the data were processed

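The authors deposited scanner intensity values: the mean signal and median local background of each spot in Cy3 and Cy5 on 10 two-colour Agilent arrays, linear and not normalized. The files' headers name Feature Extraction 10.7.1.1 for slide 1 and 10.7.3.1 for slides 2 and 3, versions other than the one in the methods. The software's marks of spots as saturated, non-uniform or well above background were also used. The 72 other colour columns per array were not.

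The analysis used limma 3.58.1 under R 4.3.3. Background was corrected with normexp (offset 50), colours were normalized by loess within arrays and arrays by Aquantile. A spot was kept where it reached 2 times its background and was not marked non-uniform in any of the 20 samples. Probes stood for a gene name by highest mean signal. Of the 10355 names, 86.5% matched a symbol in the RefSeq gene table. All 20 samples were fitted with condition means, a colour term and the array as a random block (correlation 0.529, held in single-array fits), with empirical Bayes moderation and Benjamini-Hochberg adjustment. The fit was tested on simulated data.

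The members and the gene lists were chosen with earlier results of these data known. Named genes were: the 15 largest rises and falls called on both arrays with a symbol, by the smaller array's difference, called members of the activity, neurotrophin and neuropeptide lists, up to 4 called members of other lists, the 4 called genes whose arrays differ most, and Bdnf, Npas4, Egr1, Fos, Arc and Nr4a1. Genes grouped by function, genes with other probes and genes named as not called were added after their values were seen. Alternatives changed the background, scaling, filter, saturation rule, probe choice, colour term, block, samples and test. Motifs were matched in RefSeq promoters (GRCm38.p6). Some items named by the rule are not reported here.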

Additional observations from a re-analysis of the deposited data

Results flagged for a closer look

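For the described genes, each with 2 groups of 4 samples, 5 of 214 groups had a sample far from the other 3 by Dixon's criterion, which chance gives in about 5% of groups. Klf6 in X3 was at 12.78 with the nearest sample at 12.19. Olfr700 in X3 was at 8.14 with the nearest at 8.49. Raet1b in X4 was at 9.59 with the nearest at 8.95. Rgs2 in X1 was at 10.04 with the nearest at 10.28. Serpinb8 in the C1/C3 Cy3 sample was at 13.72 with the nearest at 14.83.

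Of the same genes, 18 (16.8%) differed between 90/5 2 hr and 18/1 5 hr, the conditions of slide 2, at an adjusted p under 0.05 in limma, where 12.9% of all genes were called. On means of arrays 0 genes were called, with 2736 under an unadjusted p of 0.05. Higher at 90/5 2 hr were Prss53 (2.48), A_66_P102046 (2.21), Pde1a (1.79), Pkd1l2 (1.44), Hdac11 (1.34), Rps18 (1.25), Itga3 (1.15), Btg2 (1.02), Trim3 (0.95), Gm8994 (0.93), Vasp (0.88) and E2f4 (0.84). Lower were Gm9924 (-2.41), Raet1b (-2.08), Zfp937 (-1.70), Lifr (-1.55), Bdnf (-1.19) and Cdk4 (-1.10).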

How the results depend on the processing

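The 90/5 2 hr samples lay on 2 arrays, and the number of arrays and the brightness over background limit what can be seen. The count of 728 called genes, 50.7% of them higher, came to 421 (33.3% higher) with saturated probes left out, 2312 (43.5%) with no array block, 208 (79.8%) on means of arrays, 2138 (35.3%) by the methods' t-test unadjusted with at least 1.4-fold, 75 (36.0%) by that test with Benjamini-Hochberg adjustment, and 2124 (39.2%) with the 18/1 5 hr arrays left out. The share higher was also 75.1% with centring on medians only, 44.5% with the filter in the 8 samples compared, 46.0% with it in all samples of at least 1 group and 57.7% in a fit of the 8 samples. Leaving out samples or arrays gave 105 to 2143 genes and 40.3% to 82.7% higher. The lowest count, 105, was without the C2/C4 array and the highest, 2143, without the C1/C3 array. It was 139 without X1/X2, 132 without X3/X4, 447 without X2 and 440 without the C2/C4 Cy5 sample. Of 106 genes called with the main or the weaker filter, 36 kept their call in all 12 such fits. The 106 include Fos, Npas4, Egr4, Nr4a2 and Gem, which passed the weaker filter through stimulated conditions alone and have no test. Fos, Npas4 and Egr4 are among the 36, so both numbers are a description.

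The C1/C3 count of 105 was 165 with the any-group filter, 178 with no spot filter, 17 without saturated probes, 57 with no colour term, 627 with no block, 40 on array means, 178 in the 8 samples, 941 and 23 by the t-test without and with adjustment, 600 without 18/1 5 hr and 182 with the correlation re-estimated, and 22 to 87 when leaving out unstimulated samples or arrays. With centring on medians it was 81, with 78 higher and 3 lower. The C2/C4 count of 2143 was 3314, 3954, 4216 with no block, 4134 in the 8 samples, 3242 by the unadjusted t-test and 5380 without 18/1 5 hr, where the first 2 values are for the any-group filter and no filter, and 910 to 1897 in the leave-outs. The 92 genes called on both arrays (80 higher and 12 lower) were 13 without saturated probes (7 and 6), 54 with no colour term, 513 with no block (321 and 192), 40 on array means, 160 in the 8 samples, 463 by the unadjusted t-test (68 and 395) and 3 by the adjusted one, 497 without 18/1 5 hr and 153 with the correlation re-estimated, and 18 (without X3/X4) to 79 in the leave-outs. With centring on medians they were 78 (77 and 1). They were 94 with the filter in the 8 samples (70 and 24), 125 with the any-group filter (93 and 32) and 82 with no spot filter (59 and 23). These need not be the same genes. Of the 92, 15 were among the 463 and 0 among the 3, 12 of the 44 still tested remained without saturated probes, 32 remained on array means, 54 with no colour term and 92 with no block. With no spot filter 31 remained, with centring on medians 55, with the any-group filter 59 and with the filter in the 8 samples 69. The 1336 genes called against 18/1 5 hr were 4855 with centring on medians, 3419 with no block, 818 with the GC trend removed and 0 on array means, with 2736 genes in limma under an unadjusted p of 0.05, and 11 to 2742 in the leave-outs. Leaving out the 18/1 5 hr arrays, re-estimating the correlation, and the leave-outs for the single-array, both-array and 18/1 5 hr counts were chosen after seeing the data. The cause of these shifts was not tested. Median centring moved the median of all genes from -0.082 to 0.003, and on the C1/C3 array from -0.037 to 0.164.

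Of 2955 values of described genes under alternatives, 2193 kept direction and call, 746 lost the call, 8 gained it and 8 reversed. All 8 gains were of Arc. With saturated probes left out another probe stood for Cdk4 (-0.39), Ehmt1 (-0.07), Sdhc (-1.10) and Trim25 (-0.69). Wdfy1 was -0.66 through another probe under the other 2 filters, with no filter and without 18/1 5 hr.

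No paired analysis was possible because the 90/5 2 hr samples carry no settled replicate number.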
